A study of Drosophila melanogaster with 2 samples.

Results

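The genes described here were grouped as signaling and transporter genes of the blood-brain barrier of Drosophila: moody, loco, Mdr65, Tret1-1 and Indy. They were chosen by function, as the receptor signaling of subperineurial glia, an efflux pump and the carriers of sugar and citrate, and taken by their symbols from the deposited expression values. All 5 were found among the 13623 genes. The barrier is an epithelium of glia that wraps the nervous system and separates it from the hemolymph. Its inner layer, the subperineurial glia, seals the space between cells with septate junctions and uses the G protein-coupled receptor Moody and the regulator Loco to hold this seal. Because the seal blocks free passage, drugs are expelled by pumps, and sugars and organic acids enter through carriers.

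Nuclear RNA libraries, 1 from GNP cells and 1 from glia, were made from nuclei isolated by INTACT, a method in which a FLAG-tagged protein of the nuclear envelope is made under Gal4 in chosen cells and the tagged nuclei are bound to beads out of a homogenate of cross-linked whole embryos. The GNP embryos, 5 to 7 h after egg laying, carried gcm-Gal4 with UAS-mCDGFP on a chromosome written over cyo, and the tag UAS-3xFLAG-blrp-mCherry-RanGap. The glial embryos, 12 to 14 h after egg laying, carried repo-Gal4 and the same tag over Tm3B. The tag line of both also makes the biotin ligase BirA under Gal4. The study takes the GNP cells (Gcm-expressing neural progenitors) as the starting point of glial differentiation, while the sample labels call them early glial cells. The driver gcm-Gal4 also marks precursors of hemocytes, and repo-Gal4 marks nearly all lateral glia, of which the barrier layers are only one kind. Cell type, driver, further transgenes and age of the embryo changed together and cannot be told apart. With 1 library of each there is no replicate error, so no test was made and no p-value is given.

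Levels are FPKM values, which count reads per length of transcript and relative to all mapped reads, so that genes can be compared within a library. From the steps that single reads leave among low values, the depth of the GNP library was estimated at 64.0 M mapped reads and that of the glia library at 52.4 M. The genes after which the drivers are named differed between the libraries: repo was at 3.84 FPKM in GNP against 32.0 FPKM in glia, and gcm at 40.2 and 21.5 FPKM. The 8 glial genes, these included, summed to 690 and 606 FPKM, a sum in which bnb alone had 576 and 409 FPKM. Of the 8, repo, gcm2, wrapper and alrm were at least 2-fold higher in glia and 0 were at least 2-fold lower. Gs2 was nearly level at 59.2 and 57.0 FPKM, and Eaat1 was somewhat higher in glia at 2.00 and 2.84 FPKM. Many genes that mark other cells were present in both libraries, and some were nearly absent from both. The summed level of 8 muscle genes was 985 FPKM in GNP against 6710 FPKM in glia, that of 5 tracheal genes 124 and 786 FPKM, that of 5 midgut genes 34.2 and 238 FPKM, that of 6 fat body genes 131 and 1016 FPKM, and that of 7 neuronal genes 119 and 565 FPKM. At least 2-fold higher in glia were 7 of the muscle, 3 of the tracheal, 2 of the midgut, 2 of the fat body and 6 of the neuronal genes, and at least 2-fold lower were the tracheal gene btl and the midgut gene alphaTry. By the same rule 21.2% of all genes were higher and 16.4% lower. The remaining muscle gene, Mef2, was at 58.3 FPKM in GNP against 43.7 FPKM in glia. The remaining neuronal gene, elav, was at 76.9 FPKM in GNP against 44.2 FPKM in glia. The highest sums rest on few genes, as Adh and Rfabg made up nearly all of the fat body sum and mex1 most of the midgut sum in glia, and the median log2 changes of these lists were 0.12 and 0.067. The 8 plasmatocyte genes summed to 106 and 138 FPKM, with 1 of them at least 2-fold higher. Under 1 FPKM in both libraries were the fat body genes Fbp1, Fbp2, Lsp2 and Lsp1beta and the plasmatocyte genes Hml, eater and He. Listed at 0 in glia were the plasmatocyte gene eater and the fat body gene Fbp2. The part of these cells in the values below was not tested.

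The 5 barrier genes did not all differ in the same direction between the libraries. The genes moody and Mdr65 were severalfold higher in the glia library, loco was nearly level, Tret1-1 was somewhat lower and Indy was lower. On the scale of log2((FPKM in glia + 1)/(FPKM in GNP + 1)), 2 of the 5 members, moody and Mdr65, were at least 2-fold higher in glia and 1, Indy, was at least 2-fold lower. Of all genes 21.2% were at least 2-fold higher and 16.4% at least 2-fold lower by the same rule. Genes near 0 seldom pass it, since 1 FPKM is added to both values. Among the genes that averaged 1 FPKM or more over the libraries, as all 5 members did, the shares were 28.7% and 22.5%. The median log2 change was 0.26 over the 5 members and 0.037 over all genes. With so few members, nothing is read from these counts about the group as such. In nuclei pooled from many glia, a smaller share of barrier cells and less RNA in each of them cannot be told apart.

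**Figure D1:**
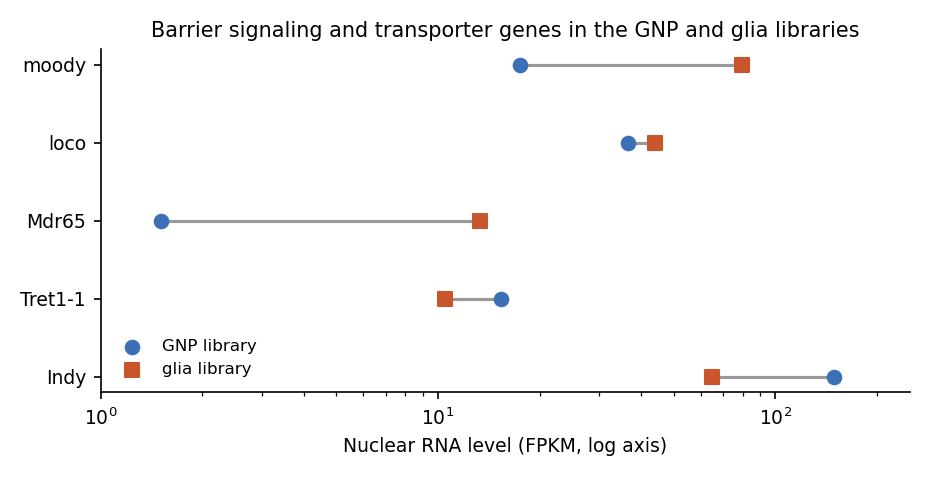
Level of each of the 5 genes in the GNP library (blue circles) and the glia library (orange squares), in FPKM on a log axis, 1 value per library and therefore without error bars. moody and Mdr65 lie further right in glia, Indy and Tret1-1 further left, and the values of loco, 36.6 and 44.0 FPKM, lie close together.

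The gene moody encodes the receptor itself, a rhodopsin-like protein that works in subperineurial glia. It lies on chromosome X from 2044292 to 2050120 on the minus strand of BDGP6, with 6 annotated transcripts of 5 exons each. Its level was 17.5 FPKM in GNP against 79.7 FPKM in glia. The ratio of these values was 4.54, and the log2 change was 2.12. With transcripts of 2937 to 3782 bases, the values correspond to about 3074 to 4022 reads in GNP and 11431 to 14959 reads in glia. The 95% counting interval of the ratio was 4.36 to 4.73 by the exact binomial method, which covers counting error only and holds nothing of the spread between embryo collections. Among all genes moody went from rank 4802 to rank 1274, and 7.58% of the genes had a higher log2 change. Centred on the median gene, the log2 change was 1.92.

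Loco is an RGS protein, which speeds the return of G alpha subunits to their resting state, and it acts with Moody in the same glia. The gene is a known target of Gcm and was first described in lateral glia. It lies on chromosome 3R from 22619968 to 22639387 on the minus strand, with 5 annotated transcripts of 4 to 5 exons. Its level was 36.6 FPKM in GNP against 44.0 FPKM in glia, a ratio of 1.20 with a counting interval of 1.16 to 1.24. The log2 change of loco was 0.26, and 39.5% of all genes had a higher one. The small difference depended on the scaling: it was 0.056 when centred on the median gene and 0.013 when both libraries were scaled to TPM. Of the exonic bases of loco, 1032 (13.5%) are shared with an antisense RNA, asRNA:CR43474. Strand use in the counting is not given in the sources used here, so reads of the pair cannot be told apart there.

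Receptor and regulator thus changed places. In GNP the level of loco was 2.09 times that of moody, whereas in glia the level of moody was 1.81 times that of loco. These are ratios within a library, which no scaling between the libraries can move. Set against repo, the level of moody was 4.57 times as high in GNP and 2.49 times as high in glia, since repo differed more between the libraries than moody did.

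Mdr65 encodes an ATP-driven efflux pump related to mammalian P-glycoprotein, which keeps drugs out of the fly brain. It lies on chromosome 3L from 6240500 to 6245746 on the minus strand, and its 1 annotated transcript has 12 exons and 4135 bases. Mdr65 was the lowest of the 5 genes in GNP at 1.5 FPKM, about 379 reads, and reached 13.3 FPKM in glia, about 2738 reads. The ratio was 8.82 with a counting interval of 7.92 to 9.85, the highest of the 5. Its log2 change was 2.51, which 4.87% of all genes exceeded. A pseudocount of 1 FPKM holds this value down, and with 0.1 FPKM it was 3.06. The ratio of repo between the libraries was 8.32, and the level of Mdr65 stood at 0.392 of that of repo in GNP and at 0.415 in glia.

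Tret1-1 encodes a carrier of trehalose, the main sugar of the hemolymph, and is known from the outer, perineurial layer of the barrier. It lies on chromosome 2R from 11665768 to 11674782 on the plus strand, with 2 annotated transcripts of 5 and 8 exons. Its level was 15.4 FPKM in GNP against 10.5 FPKM in glia. The level in GNP was 1.46 times that in glia, with a counting interval of 1.35 to 1.58, and the log2 change was -0.51. This is under 2-fold, and 25.7% of all genes had a lower change. It remained under 2-fold with each of the 3 other scalings, from -0.75 with TPM to -0.32 with upper quartile scaling.

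Indy is a carrier of citrate and other intermediates of the citric acid cycle through the plasma membrane, known best from long-lived mutants and from expression in fat body, midgut and oenocytes of adult flies. It lies on chromosome 3L from 18828632 to 18846267 on the minus strand, with 4 annotated transcripts of 9 exons each. With 149 FPKM in GNP against 65.1 FPKM in glia, Indy had the highest level of the 5 in GNP, at rank 612 of all genes, and stood behind moody in glia, at rank 1564. The level in GNP was 2.29 times that in glia, with a counting interval of 2.24 to 2.35. The log2 change of -1.19 was just past 2-fold, and under upper quartile scaling it was -0.98, so that no member was then at least 2-fold lower.

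The order of the levels differed between the libraries. In GNP it ran from Indy over loco, moody and Tret1-1 to Mdr65, and in glia from moody over Indy, loco and Mdr65 to Tret1-1. The closest neighbours were moody and Tret1-1 in GNP, with a ratio of 1.14, and moody and Indy in glia, with a ratio of 1.22. Without replicates it cannot be said which neighbours differ beyond the spread between libraries. Mdr65 stood at 0.0978 of the level of Tret1-1 in GNP and at 1.26 times its level in glia.

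**Figure D2:**
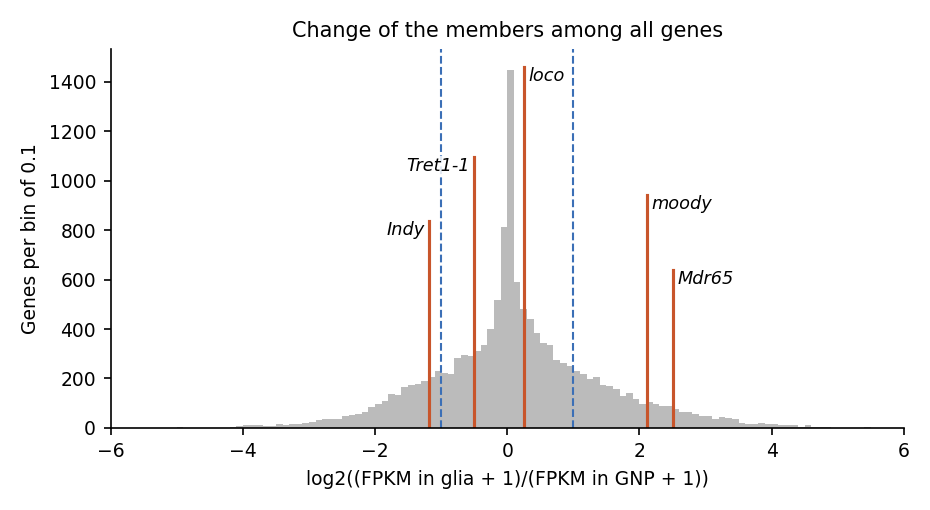
Number of genes in bins of 0.1 of log2((FPKM in glia + 1)/(FPKM in GNP + 1)) for all 13623 genes (grey), with the 5 members as orange lines whose height has no meaning and the 2-fold limits as dashed blue lines. Mdr65 at 2.51 and moody at 2.12 lie in the right tail, loco at 0.26 and Tret1-1 at -0.51 lie between the limits, and Indy at -1.19 lies just past the lower one.

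The proportions of the G protein alpha subunits differed between the libraries, each of which pools all isolated nuclei and not only cells with Moody. The level of G-ialpha65A, the inhibitory alpha subunit, was 216 FPKM in GNP against 80.6 FPKM in glia (log2 change -1.41). That of G-oalpha47A, the alpha subunit of the o class, was 52.0 and 129 FPKM (log2 change 1.29). Both subunits are known to act with Moody at the barrier. G-ialpha65A made up 58.8% of the summed FPKM of 4 alpha subunits in GNP and 21.7% in glia, and G-oalpha47A 14.2% and 34.7%, while the sum itself was 367 FPKM in GNP against 372 FPKM in glia. The other alpha subunits, G-salpha60A and Galpha49B, had log2 changes of 0.74 and 0.64. Gbeta13F, the main beta subunit outside the eye, was at 245 and 420 FPKM, and Ggamma1, its partner, had the highest log2 change of the 6 subunits, 1.60, with 365 and 1107 FPKM.

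Of the 17 genes listed around the receptor, 6 were at least 2-fold higher in glia and 3 at least 2-fold lower. The shares of all genes were 21.2% and 16.4%. All 17 averaged 1 FPKM or more, and among such genes the shares were 28.7% and 22.5%. The median log2 change of the 17 was 0.64. The highest changes were those of Strn-Mlck, which holds a myosin light chain kinase and is also a gene of muscle, with 2.48, of RSG7, another RGS gene, with 2.37, and of Pka-R2, a regulatory subunit of protein kinase A, with 2.16. Strn-Mlck was at 8.29 FPKM in GNP against 50.6 FPKM in glia, and the summed muscle markers stood beside it at 985 and 6710 FPKM. RSG7 went from 0.799 to 8.32 FPKM and Pka-R2 from 7.83 to 38.4 FPKM, whereas Pka-C1, the catalytic subunit, was at 62.2 and 43.2 FPKM. The lowest changes were those of krz, an arrestin that uncouples receptors, with -1.79, of G-ialpha65A, and of raps (pins), which binds the inhibitory alpha subunit, with -1.22. Tre1, the receptor most related to Moody and known from germ cell migration, was at 35.0 FPKM in GNP against 71.5 FPKM in glia (log2 change 1.01). The level of Tre1 was 1.99 times that of moody in GNP, and moody stood at 1.11 times Tre1 in glia.

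Among the pumps, Mdr65 was at least 2-fold higher in glia and its relatives Mdr49 and Mdr50 were not, whereas CG10226, an ABC transporter gene of the same subfamily that lies next to Mdr65, was also higher. Mdr49 was at 3.36 FPKM in GNP against 4.54 FPKM in glia (log2 change 0.35), and Mdr50 at 0.390 and 0.719 FPKM (log2 change 0.31). Mdr65 made up 28.6% of the summed FPKM of the 3 Mdr genes in GNP and 71.6% in glia, and with CG10226 in the sum 26.1% and 54.9%. The lead over Mdr49 changed hands, from 0.448 to 2.92 times its level. Of the 9 genes listed as pumps beside Mdr65, 0 were at least 2-fold higher in glia and 3 were at least 2-fold lower, beside 21.2% and 16.4% of all genes, with a median log2 change of -0.28. The list leaves out CG10226, and with it 1 of 10 was higher and the median was -0.17. Of the 3, CG5789 had the lowest log2 change, -1.87, with 35.4 and 8.98 FPKM. The others were the gene with the RefSeq locus tag CG8799, at 12.6 and 3.94 FPKM (log2 change -1.46), and CG31793, at 5.58 and 1.63 FPKM (log2 change -1.32). MRP, a pump of conjugated compounds, was at 44.7 and 33.8 FPKM and had the highest level of the 9 in both libraries.

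Among the sugar carriers Tret1-1 stood behind sut1 in both libraries and also behind Glut1 in glia. The level of sut1 was 19.4 FPKM in GNP against 14.5 FPKM in glia. Tret1-2, the copy of Tret1-1 next to it, was at 1.39 FPKM in GNP against 0.78 FPKM in glia, and Tret1-1 made up 91.7% and 93.1% of the FPKM of the pair. Both therefore stood in nearly the same proportion in the libraries. Glut1, a glucose carrier, went from 8.20 to 25.3 FPKM (log2 change 1.51). In GNP Tret1-1 was at 1.88 times the level of Glut1, and in glia Glut1 was at 2.40 times that of Tret1-1. Treh, the enzyme that splits trehalose into glucose, was at 9.5 and 32.6 FPKM (log2 change 1.68), while Tps1, which makes trehalose, was at 30.7 and 12.6 FPKM (log2 change -1.22). With sut2, a further sugar carrier at 1.37 and 6.30 FPKM, the genes at least 2-fold higher in glia numbered 3 of 10, and 1 was at least 2-fold lower, beside 21.2% and 16.4% of all genes. The median of this list, -0.057, was held near 0 by genes that were hardly present, and without the genes whose mean level was under 1 FPKM it was 0.56.

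The relatives of Indy were close to absent. Indy-2 was at 0.0322 FPKM in GNP against 0.0923 FPKM in glia, and CG33934, annotated over the same stretch as Indy-2, at 0.00667 and 0.0210 FPKM. CG7309 reached 0.0105 FPKM in glia and was listed at 0 in GNP. Indy made up 99.97% and 99.81% of the summed FPKM of these 4 genes. Of the 9 carboxylate genes beside Indy, only Mct1, a monocarboxylate carrier, was at least 2-fold higher in glia, with 12.5 and 30.1 FPKM. Only out was at least 2-fold lower, with 28.3 and 8.80 FPKM. The shares of all genes were 21.2% and 16.4%, and the median log2 change of the 9 was 0.015. chk (listed as CG3409), a carrier of lactate and pyruvate in glia, was level at 35.7 and 35.5 FPKM. Bsg, whose protein accompanies such carriers to the membrane, had the highest level of this list at 207 and 361 FPKM.

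The seal that Moody signaling maintains was represented by 17 genes of the septate junction. Of these, 7 were at least 2-fold higher in glia and 0 at least 2-fold lower, beside 21.2% and 16.4% of all genes. All 17 had at least 32.1 FPKM in each library, and among genes that averaged 1 FPKM or more the shares were 28.7% and 22.5%. The median log2 change of the 17 was 0.81. Of the 17, 16 were above 0, as were 52.8% of all genes, and crok, a protein needed for junction assembly, was the exception at -0.41. The highest were cora, a cytoplasmic linker of the junction, with 46.1 and 210 FPKM, Atpalpha, the sodium pump subunit that serves as a junction component, with 133 and 384 FPKM, and cold, with 60.2 and 167 FPKM. Septate junctions are also built by trachea, epidermis and hindgut, and of the 5 tracheal markers serp, verm and pio were at least 2-fold higher in glia, trh was level at 24.1 and 23.1 FPKM, and btl was lower at 19.7 and 5.90 FPKM. Their summed level was 124 and 786 FPKM, and their part in the junction values was not tested. The log2 change of moody, 2.12, was close to that of cora, 2.16, the highest of the 17. It was above those of the other junction genes, of which Atpalpha came next with 1.52.

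Of the 16 other carriers and receptors of the barrier, 6 were at least 2-fold higher in glia and 3 at least 2-fold lower, with a median log2 change of 0.85. Oatp33Eb, a carrier of organic anions, was at 2.81 and 14.8 FPKM (log2 change 2.05). The kinase fray, which controls cation-chloride carriers and is known from glia of the peripheral nerve, was at 14.6 and 43.1 FPKM, and Oatp74D, the importer of ecdysone, at 12.9 and 34.1 FPKM. In the other direction Oatp58Dc, also of the organic anion carriers, went from 51.9 to 3.38 FPKM (log2 change -3.59), the lowest change of all 6 lists. The amino acid carrier JhI-21 was at 71.5 and 16.4 FPKM, and the lipoprotein receptor LpR2 at 22.7 and 9.49 FPKM. Over all 6 lists together, 23 of 78 genes (29.5%) were at least 2-fold higher and 11 (14.1%) at least 2-fold lower, beside 21.2% and 16.4% of all genes. Beside the genes that averaged 1 FPKM or more, at 28.7% and 22.5%, the share of higher genes was nearly the same and that of lower genes was smaller. The lists also hold some genes under 1 FPKM, so neither background matches them fully.

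**Figure D3:**
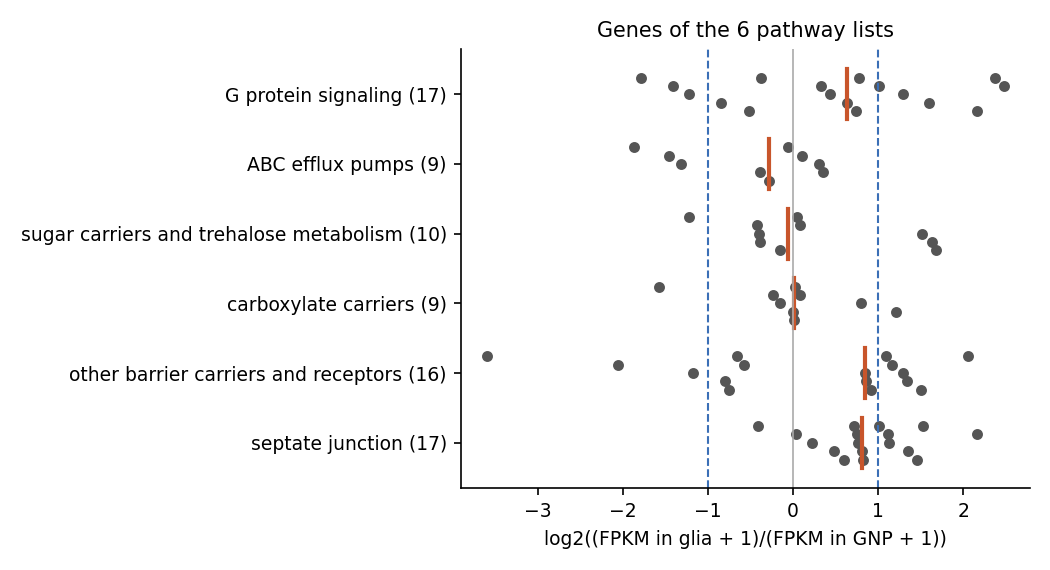
Log2((FPKM in glia + 1)/(FPKM in GNP + 1)) of each gene (grey points) in the 6 lists, with the number of genes in brackets, the list median (orange bar) and the 2-fold limits (dashed blue lines). Points are spread vertically only to keep them apart. The junction genes lie right of 0 except for crok, and the pumps include 3 genes past the lower limit and 0 past the upper one.

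The genes beside Mdr65 on chromosome 3L had a similar pattern. CG10226, the ABC transporter gene named above, lies 431 bases away and is read in the same direction. It was at 0.507 FPKM in GNP against 5.63 FPKM in glia (log2 change 2.14). Best2, a bestrophin gene of a chloride channel family that lies 186 bases away on the other side, also in the same direction, was at 0.987 and 5.42 FPKM (log2 change 1.69). The 3 genes share no exonic bases in BDGP6. All 3 were therefore low in GNP, and each was at least 2-fold higher in glia, as were 21.2% of all genes and 28.7% of those with a mean of at least 1 FPKM.

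Around moody the neighbours were higher in glia too, and CG4325 stayed under 2-fold on the log2(FPKM + 1) scale. CG4313, on the opposite strand, spans the whole of moody without sharing an exonic base with it, and was at 3.72 and 15.5 FPKM (log2 change 1.81). Sik2, a kinase gene 5189 bases away, was at 1.12 and 9.82 FPKM (log2 change 2.35), and CG4325 at 1.47 and 3.64 FPKM (log2 change 0.91). Tret1-1 lies inside the span of Roc2, on the opposite strand and again without a shared exonic base, and Roc2 was at 40.5 and 26.1 FPKM (log2 change -0.62) beside -0.51 for Tret1-1 and -0.43 for Tret1-2. In nuclear RNA, reads of unspliced CG4313 can still fall within moody or CG4325, and those of unspliced Roc2 within Tret1-1, Tret1-2 or CG13198. Strand use in the counting is not given in the sources used here, so such reads cannot be told apart. Not every neighbour differed in the direction of its member, as Cat, the catalase gene 443 bases from Indy, was at 45.1 and 89.8 FPKM where Indy was lower in glia. CG6865, on the other side of Indy, had a log2 change of -0.60, and CG13198, beside Tret1-1, had 0.24. At loco the neighbour mRpL45, a mitochondrial ribosomal protein gene, was at 49.3 and 41.7 FPKM. The neighbour on the other side of loco, wake, 420 bases away, was not found under that symbol among the deposited values. Positions refer to BDGP6, which replaced the dm3 assembly that the processing notes of the submitters name, and whether neighbours were alike more often than other pairs of genes was not tested.

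**Figure D4:**
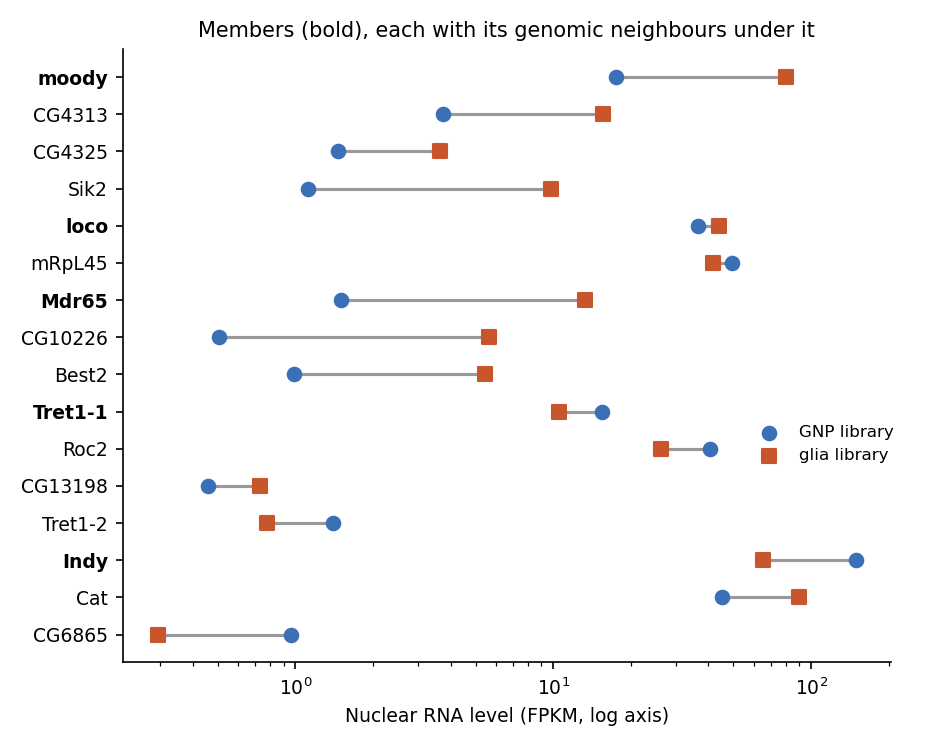
Level of each member (bold) and of its nearest or overlapping genes in BDGP6 in the GNP library (blue circles) and the glia library (orange squares), in FPKM on a log axis, 1 value per library. Neighbours whose symbol was not found among the deposited values are left out. Mdr65, CG10226 and Best2 all lie further right in glia, as do moody, CG4313, CG4325 and Sik2, while Cat and Indy lie in opposite directions.

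Genes with the most similar pair of levels were found by distance in log2(FPKM + 1) over the 2 libraries, which only says that both levels were alike. For moody they were l(1)G0255 and CG42376, at distances of 0.0801 and 0.114. For loco they were CrebB-17A and hep, at 0.0159 and 0.0291. For Mdr65 they were sr, the regulator of tendon cells, and CG34294, at 0.0251 and 0.0355. For Tret1-1 they were CG15356 and CG9630, at 0.0155 and 0.0297, and for Indy they were Ars2 and CG5941, at 0.0267 and 0.0271. None of the 10 is on the lists of barrier genes.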

How the data were processed

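Nuclear RNA of 1 GNP and 1 glia library was analysed. Reads were mapped by the authors to FlyBase transcripts with TopHat (version 1.3.1), and Cuffdiff (version 1.3.0) gave the deposited FPKM value per gene from uniquely mapped reads (named RPKM in the methods). Deposited columns with a p-value and a call of the authors' own comparison were not used. The change of a gene is the log2 ratio of glia to GNP after 1 FPKM was added to both, so low genes change less on this scale, and it was counted at 2-fold with no test. Depth was estimated from whole-read steps in genes with a single annotated transcript (600 bases or longer), for a fragment length of 200 bases. Within 0.1 of a whole read lay 82.35% of 810 low genes in GNP and 82.97% of 787 in glia. The estimate was tested on simulated reads drawn with the same transcript lengths and fragment length, so errors in these lengths could not show. Intervals are exact binomial at 95%, from the shortest transcript. Of the 13623 symbols 11036 are in BDGP6 unchanged, and some list genes were found by a synonym in RefSeq. One synonym (chk) was corrected after values were seen. Members and lists were chosen with earlier results of these data known. Named are the members, their relatives, the G protein subunits, list genes past 2-fold (the 3 highest and 3 lowest where more than 6 passed), neighbours and the 2 nearest patterns, and some further list genes chosen after their values were seen. The tools were scipy 1.17.1, pandas 2.3.3, numpy 2.4.6 and matplotlib 3.10.9 under Python 3.11.15.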

Additional observations from a re-analysis of the deposited data

How the results depend on the processing

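For 15 results 79 alternatives were run, and 52 stayed within the counting interval or within 1.5 times. The scalings shifted glia against GNP by 0.21 (upper quartile), -0.21 (median gene) and -0.25 (TPM) on the log2 scale, and changes are best read against these shifts. Centred on the median gene, the log2 changes were 1.92 for moody, 0.0563 for loco, 2.32 for Mdr65, -0.70 for Tret1-1 and -1.39 for Indy. With upper quartile scaling they were 2.33, 0.47, 2.71, -0.32 and -0.98 in the same order, so that 0 members were at least 2-fold lower. With TPM they were 1.89 for moody, 0.0126 for loco, -0.75 for Tret1-1 and -1.44 for Indy. With a pseudocount of 0.1 FPKM Mdr65 was at 3.06. No member changed direction. A limit of 4-fold left 0 members lower, with 1153 genes higher and 614 lower in all. List medians moved for the pumps to -0.17 (upper quartile), -0.45 (TPM) and -0.17 (with CG10226, chosen after seeing the data), for G protein signaling to 0.39 (TPM), for the sugar genes to 0.56 (mean of at least 1 FPKM), and for the carboxylate genes to 0.14 (pseudocount of 0.1), 0.0498 (upper quartile) and -0.0078 (mean of at least 1 FPKM). None of the alternatives shows whether a difference would recur in other libraries.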

Other observations

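Further carriers of the lists, chosen after their values were seen, concerned chloride and lipids. The sodium-potassium-chloride carrier Ncc69, a target of the kinase Fray in peripheral glia, was at 10.1 FPKM in GNP against 26.1 FPKM in glia (log2 change 1.29), and the potassium-chloride carrier kcc at 24.5 and 45.3 FPKM (log2 change 0.86). Of the lipoprotein receptors, LpR1 was at 3.17 and 8.34 FPKM (log2 change 1.16), where LpR2 had -1.18. The larger receptors mgl and LRP1 had log2 changes of 0.91 and -0.80. The amino acid carrier mnd was at 25.7 and 55.9 FPKM (log2 change 1.09), where the related JhI-21 had -2.06. LpR1 and LpR2, and likewise mnd and JhI-21, thus stood on opposite sides of 0.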
